A study of Homo sapiens with 2 samples.

Results

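The 8 genes examined here, FOS, FOSB, FOSL1, FOSL2, JUN, JUNB, JUND and ATF3, encode members of the AP-1 family of transcription factors. They were examined for called EGR1 intervals in t-HESC, a human cell line with unlimited growth that derives from the stroma, or supporting tissue, of the endometrium. An interval was taken when any part of it lay within 10 kb of the gene body on GRCh37. Of the 7709 intervals that the authors listed, 16 met this rule, and they lay at 7 of the 8 genes. The series consisted of 1 library of chromatin precipitated with an antibody against EGR1 and 1 input library, both from untreated cells. The medium held 10% fetal bovine serum and 500 ng/ml puromycin. No replicate was made of either library, so no test between samples was possible. With positions alone the cell type of the line could not be checked against marker genes.

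AP-1 is a dimer of basic leucine zipper proteins. JUN proteins pair with each other or with FOS proteins, whereas FOS proteins depend on a JUN partner to bind DNA, and ATF3 can pair with JUN proteins or with itself. FOS, FOSB, JUN and JUNB are immediate early genes, switched on within minutes by serum and growth factors. EGR1, a zinc-finger factor that binds GC-rich DNA, is the product of another such gene. Several AP-1 genes are expressed in the stroma of the endometrium, where FOSL2 has been linked to the response to progesterone.

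To show the promoter DNA of genes with and without an interval at their start, 3 promoters are printed. The starts of JUN and JUNB lay inside an interval, and FOS had none within 10 kb. The letters are RefSeq sequence on GRCh38.p14, the 250 bases before the gene start, read 5′ to 3′ along the gene. Capitals mark GCGNGGGC, a short form of the EGR1 motif, and GGGCGG, the GC box of SP1-type factors, on either strand. In JUN alone they also mark TGACATCA, the AP-1-like site known from this promoter.
FOS (chr14:75278578-75278827, plus strand): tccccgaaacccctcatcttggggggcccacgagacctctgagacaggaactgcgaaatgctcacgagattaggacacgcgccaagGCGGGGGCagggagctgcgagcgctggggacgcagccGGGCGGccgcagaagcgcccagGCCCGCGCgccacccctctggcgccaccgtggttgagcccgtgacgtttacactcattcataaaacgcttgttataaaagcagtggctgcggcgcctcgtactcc
JUN (chr1:58784048-58784297, minus strand): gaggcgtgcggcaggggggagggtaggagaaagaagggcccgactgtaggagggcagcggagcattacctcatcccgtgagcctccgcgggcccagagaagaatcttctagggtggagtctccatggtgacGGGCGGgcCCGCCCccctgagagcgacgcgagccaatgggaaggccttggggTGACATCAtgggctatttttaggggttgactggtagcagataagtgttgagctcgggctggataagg
JUNB (chr19:12791236-12791485, plus strand): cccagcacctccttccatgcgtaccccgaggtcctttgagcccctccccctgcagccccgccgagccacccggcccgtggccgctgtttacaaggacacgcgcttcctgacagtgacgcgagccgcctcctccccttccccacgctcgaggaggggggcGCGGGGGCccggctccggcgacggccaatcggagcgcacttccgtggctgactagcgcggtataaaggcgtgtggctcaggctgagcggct
In FOS, 2 matches to GCGNGGGC began 164 and 105 bases before the start. In JUNB, 1 match began 91 bases before it. JUN held no match to that pattern, and its TGACATCA began 67 bases before the start. Both GCGNGGGC and TGACATCA were added after the sequences had been seen, and these 3 promoters support no comparison between genes with and without an interval. The intervals are on GRCh37 and no position was carried between builds, so which of the printed bases lie inside an interval was not analysed here.

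RefSeq promoters were found for 7 of the 8 genes, all but FOSL1, and ATF3 had 2 entries. The search took in 300 bases, 250 before the start and 50 after it, on both strands. None of the 8 entries held the full EGR1 pattern GCGNGGGCG, which takes in GCGTGGGCG and GCGGGGGCG. It was present in 9.43% of all 35114 promoters. At such a share, 8 entries are too few for this absence to mark a difference. The shorter GCGNGGGC, which the full pattern contains, was present in 2 of the 8 entries, FOS and JUNB, and in 17.2% of all promoters. The GC box GGGCGG was present in 6 of the 8 entries and in 45% of all promoters. JUND had 6 matches to it and JUNB none. Here too, 8 entries are too few to mark a difference, and GC content was not taken into account. GGGCGG can share bases with matches to the EGR1 patterns. The AP-1 site TGACTCA was present only in FOSL2, at base 5 after the start, and in 4.95% of all promoters. The cyclic AMP response element TGACGTCA was present only in JUND, 200 bases before the start, and in 1.85% of all promoters. TGACATCA also occurred in ATF3, at its upstream entry, and in 2.61% of all promoters. The CArG box of serum response factor was present in none of the 8 entries and in 1.29% of all promoters. Sequence more than 250 bases before the start was not searched. GC content was 77.0% in JUND and 71.0% in JUNB, against a median of 58.7% over all promoters, and 48.0% and 46.3% in the 2 ATF3 entries.

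EGR1 intervals were listed at every JUN gene, at 3 of the 4 FOS genes and at ATF3, but not at FOS. For each interval the authors gave 1 summit and a whole-number score of unstated unit. Scores are used here only to place an interval within this list, where the median was 26, the 90th percentile 57 and the highest 336. Counted by gene, JUNB had 4 intervals, FOSL2 and JUND 3 each, FOSB and FOSL1 2 each, and JUN and ATF3 1 each. Intervals lay over or within 1 kb of the start at 6 genes, all but FOS and ATF3. That is 75% of the genes examined (exact Clopper-Pearson 95% interval 34.9 to 96.8%). The share of other gene starts with an interval within 1 kb was not analysed here. Whether this value differs from that of other genes is therefore not known.

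A window holding an interval was the usual state at these genes and a rare state along the chromosomes. The 87.5% of genes with an interval (exact Clopper-Pearson 95% interval 47.3 to 99.7%) compare with 5.19% of 114919 windows of 25321 bp, the median length of the 8 windows, tiled over all chromosomes. On chromosome 19, which carries FOSB, JUNB and JUND, 20.5% of windows as long as that of FOSB held an interval, and 17.2% of windows as long as that of JUND did. Per length, the 8 windows held 60.8 intervals per Mb (exact Poisson 95% interval 34.7 to 98.7), against 2.65 per Mb over all chromosomes. The 3 windows on chromosome 19 held 127 per Mb (58.0 to 241), against 11.5 per Mb for that chromosome. These intervals cover counting error only and are too narrow, because neighbouring intervals are not independent. Tiled windows include gene-free sequence and unsequenced gaps. How often other genes carry an interval was not analysed here, so whether these values differ from those of other genes is not known.

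**Figure D1:**
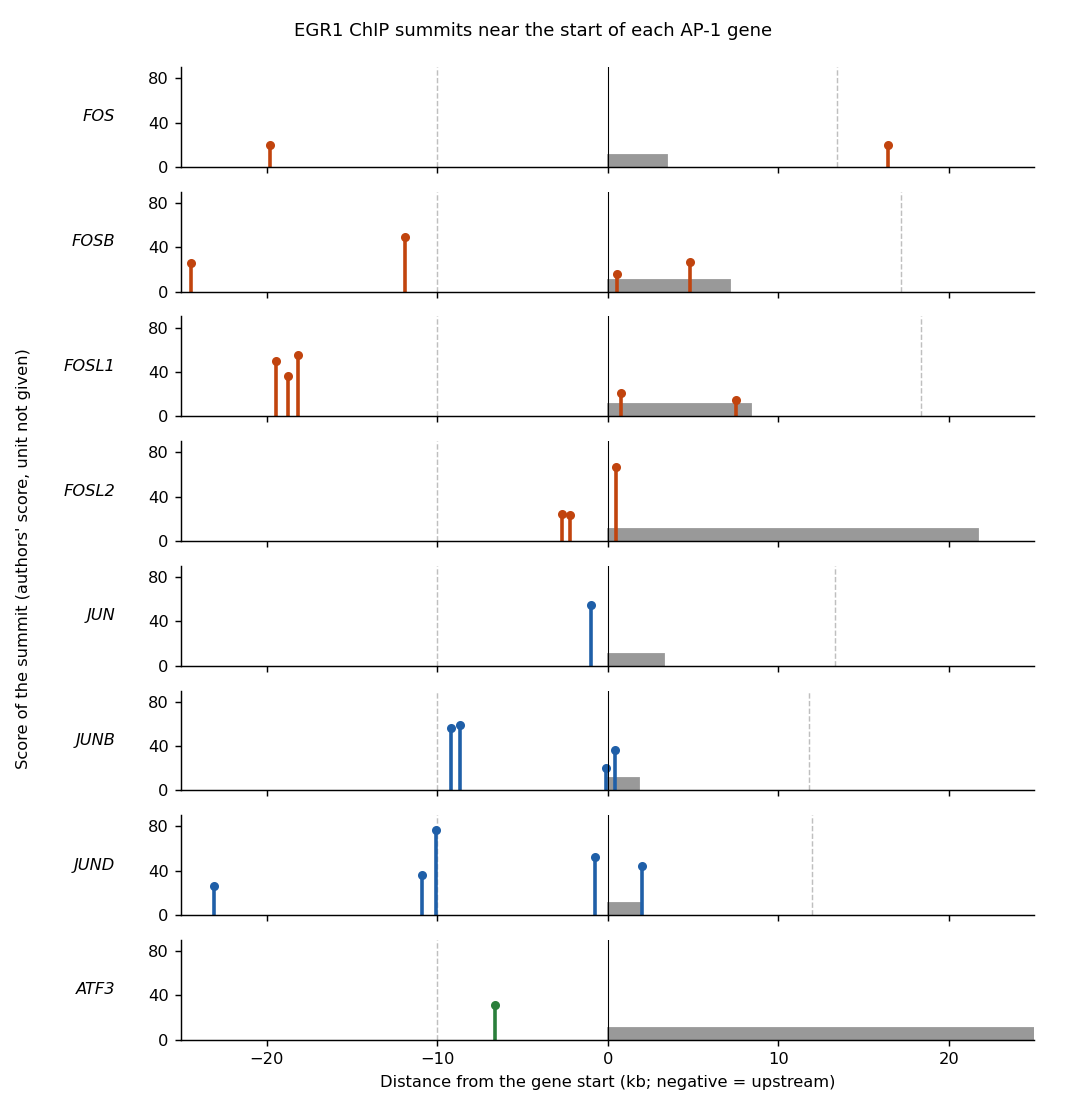
Summits of EGR1 intervals by distance from each gene start (kb, along the direction of transcription), with the summit score as height. Grey bars are gene bodies and dashed lines mark 10 kb either side of them. For FOSL2 and ATF3 the line beyond the gene end is outside the plot, and the ATF3 body is cut at the plot's edge. FOS has no summit between its dashed lines, and the JUND summit with a score of 77 lies just outside its line although its interval reaches inside.

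JUN encodes the c-Jun protein, the central activating partner of AP-1. Its gene (chr1:59246463-59249785, minus strand) had 1 interval, at chr1:59249762-59250984, which reached from 1199 bp upstream of the start to 24 bp into the gene. The summit score was 55, above 89.0% of the list. The summit lay 999 bp upstream, near the far end of the interval rather than at the gene start. The interval was 1223 bp wide, and only 0.882% of all intervals were wider. Among the 29 intervals that shared its score, the median width was 588 bp and 2 were at least as wide, itself included. In RefSeq the next gene on that side of JUN is JUN-DT, a noncoding RNA gene that runs the other way.

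JUNB encodes a JUN protein that can restrain the activity of c-Jun. Around this gene (chr19:12902310-12904125, plus strand) the 4 intervals formed 2 close pairs. One pair lay at the start. The interval at chr19:12902156-12902419, with a score of 20, covered the start from 154 bp upstream to 109 bp downstream, and its summit lay 70 bp upstream. The next, at chr19:12902630-12903079, had a score of 36 and a summit 442 bp inside the gene, which has no intron. A gap of 210 bp separated them. The other pair lay upstream, with summits 9158 and 8646 bp from the start, at chr19:12892749-12893348 and chr19:12893522-12894014. Their scores were 56 and 59, and the gap between them was 173 bp. The distant pair thus scored above both intervals at the start. The distant pair lay 8961 and 8295 bp from the gene and cannot be assigned to JUNB by position alone. HOOK2 overlaps JUNB in RefSeq, and which of the 4 intervals lie in HOOK2 on GRCh37 was not analysed here. Whether each pair is 1 enriched stretch cut by the peak caller was not tested.

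JUND encodes the JUN protein with the steadiest expression in most cells, often linked to restraint of growth. JUND (chr19:18390504-18392466, minus strand) had an interval on either side of the gene and another far upstream. The interval at chr19:18392849-18393534 ended 383 bp short of the start, with its summit 718 bp upstream and a score of 52, above 87.7% of the list. At the other end, chr19:18390213-18390657 held 154 bp of the gene and had its summit 40 bp past the gene end, with a score of 44. The far interval, chr19:18401866-18402999, had a score of 77, the highest at any of the 8 genes, and 95.2% of the list scored lower. Its width of 1134 bp made it the widest of the 14 intervals with that score. It entered the window by its near edge, 9400 bp upstream, while its summit lay 10062 bp upstream, outside the window. Counted by summits, the highest score at JUND was 52. The microRNA gene MIR3188 is the next gene upstream of JUND in RefSeq.

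FOSL2 encodes FRA2, a FOS protein. It had the highest score of the FOS family, next to its start. Its interval at chr2:28615978-28616533 began 199 bp inside the gene (chr2:28615779-28637516, plus strand) and had its summit 477 bp from the start. The score was 67, and 528 intervals of the list scored higher. Its width of 556 bp was close to the median of 611 bp for the 20 intervals with that score. Upstream lay a pair with a gap of 181 bp, at chr2:28613004-28613240 with a score of 24 and at chr2:28613422-28613792 with a score of 23. Their summits were 2691 and 2179 bp before the start, and both scores were below the median of the list. The antisense gene FOSL2-AS1 overlaps FOSL2 in RefSeq, and ChIP-seq intervals carry no strand.

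FOSB encodes a FOS protein made rapidly after stimulation. Its gene (chr19:45971253-45978437, plus strand) had 2 intervals, both inside the gene body. The one nearer the start, chr19:45971754-45971977, began 501 bp from it and had a score of 16, above 5.38% of the list. The other, chr19:45975748-45976520, had its summit 4811 bp from the start and a score of 27, close to the median. It was wide for its score, at 773 bp against a median of 323 bp, and 7 of the 258 intervals with a score of 27 were at least as wide. An interval with a score of 49 lay just outside the window, 11632 bp before the gene.

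FOSL1 encodes FRA1, a FOS protein that accumulates later after stimulation and lacks a strong activation domain. Its gene (chr11:65659606-65667997, minus strand) also had 2 intervals, both inside the gene body and both with low scores. The interval at chr11:65667051-65667517 had its summit 797 bp from the start and a score of 21. At chr11:65660279-65660605, near the far end of the gene, the score was 15, and 2.53% of the list scored lower. The neighbour beyond that end in RefSeq is CCDC85B.

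ATF3 encodes a stress-induced protein that can repress or activate, depending on its partner. The single interval near ATF3 (chr1:212738676-212794119, plus strand), at chr1:212731929-212732587, was upstream of the gene. Its summit lay 6596 bp before the start and its score was 31, above 64.0% of the list. It was 659 bp wide, against a median of 382 bp for its score. No interval was listed in the 55444 bp of the gene body, and therefore none at any start inside it. Windows as long as that of ATF3, 75444 bp, held an interval in 16.0% of cases on chromosome 1.

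FOS encodes c-Fos, the protein for which the family is named. No interval was listed within 10 kb of FOS (chr14:75745481-75748937, plus strand). The nearest summits lay 16439 bp after the start and 19785 bp before it, and each had a score of 20, above 22.2% of the list. The downstream interval began 12923 bp beyond the gene end. An absence from the list means only that no interval passed the authors' threshold. That threshold and the depth are unknown here.

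The intervals nearest to the rule's limit of 10 kb were as follows. Just inside it were the JUND interval with a score of 77, 9399 bp from the gene, and the JUNB interval with a score of 56, 8961 bp from the gene. Just outside were a JUND interval with a score of 36, 10715 bp away, and the FOSB interval with a score of 49.

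Scores of the 16 intervals ran from 15 to 77 with a median of 33.5 and quartiles of 22.5 and 55.2. Over the whole list, scores ran from 11 to 336 with a median of 26 and quartiles of 20 and 37. A score at or above the list's median was reached by 10 of the 16, or 62.5% (exact Clopper-Pearson 95% interval 35.4 to 84.8%), against 51% of all intervals. A score at or above the 90th percentile was reached by 3, or 18.8% (4.05 to 45.6%), against 10.2% of all intervals. Both shares of the whole list lie inside those intervals. The direction depended on the window: within 5 kb of the genes, the median score of 12 intervals was 25.5, below the list's 26, and 1 of them, or 8.33%, reached the 90th percentile. The 3 were at FOSL2, JUNB and JUND, and only that of FOSL2 lay within 1 kb of a gene start.

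In the windows of 10 kb, intervals at JUN genes mostly had higher scores than those at FOS genes. The 8 intervals at JUN genes had scores of 20 to 77 with a median of 53.5, and 7 of them reached the list's median of 26. The 7 at FOS genes had scores of 15 to 67 with a median of 23, and 2 of them did. The ranges overlap, through the FOSL2 start interval on one side and the JUNB start interval on the other. Of the 8, 7 are on chromosome 19, where the median score of all intervals was 27. Of the intervals within 1 kb of a start, the 4 at JUN genes scored 20, 36, 52 and 55, and the 3 at FOS genes 16, 21 and 67. The JUN family scores of 77, 59 and 56 belong to intervals 8295 to 9399 bp from the gene, which position alone cannot assign to it. The others were 20, 36, 44, 52 and 55. A window of 20 kb added scores of 49 at FOSB and of 55, 50, 37, 36 and 20 at FOSL1. It also added 20 and 20 at FOS and 36 at JUND. The comparison of the families was not repeated in that window. Each value comes from the same library, so the difference between the families was not tested.

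**Figure D2:**
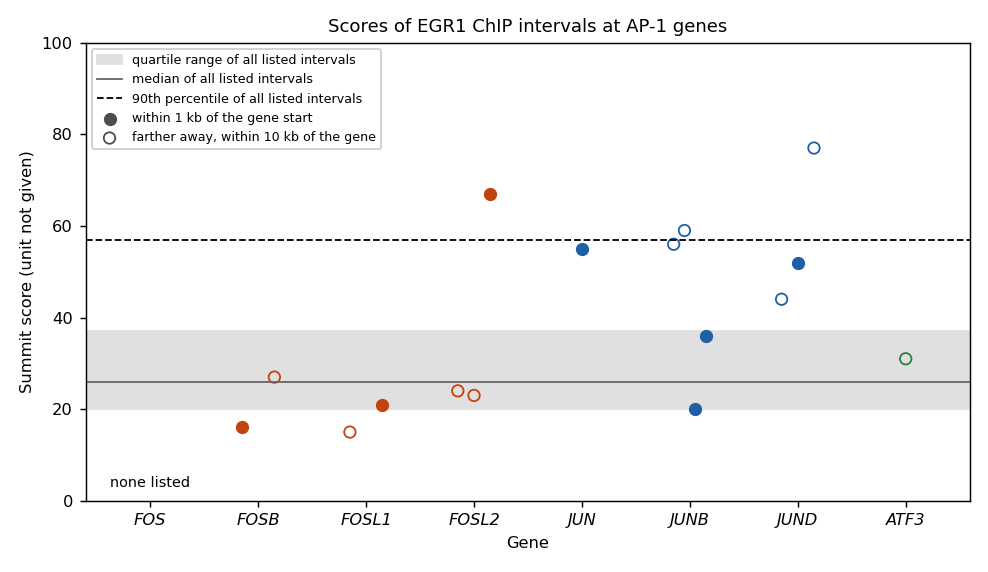
Summit score of each interval by gene, filled where the interval lies within 1 kb of the gene start and open where it lies farther away; the grey band and lines give the quartiles, median and 90th percentile of all 7709 intervals. The FOSB and FOSL1 points are at 15 to 27, and the JUND points at 44 to 77.

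By position, 9 of the 16 summits were upstream of the gene start, 6 inside the gene body and 1 past its end. The 9 include the distant summits at JUNB, 9158 and 8646 bp upstream, and at JUND, 10062 bp upstream. Position alone cannot assign these to the genes. How all listed summits divide among such classes was not analysed here. The start itself was covered at JUN and JUNB only. At FOSB, FOSL1 and FOSL2 the interval nearest the start was wholly inside the gene, and at JUND it was wholly upstream. At 15 of the 16 intervals the summit was a multiple of 32 bp, as were 77.2% of all summits, so summit distances are known to about that step. Exon, intron and untranslated regions on GRCh37 were not analysed here.

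Of the 16 intervals, 12 were wider than the list's median, or 75% (exact Clopper-Pearson 95% interval 47.6 to 92.7%), against 49.9% of all intervals. Their widths ran from 224 to 1223 bp with a median of 480 bp, against 343 bp over the list. The median was 546.5 bp at JUN genes and 371 bp at FOS genes. Over the list, the median width was 260 bp at a score of 20 and 588 bp at a score of 55. The part of score in the difference between the families was not tested. Set against intervals of the same score, 11 of the 16 were wider than the median, or 68.8% (41.3 to 89.0%), against 49.3% of all intervals. Both shares of the list lie inside the intervals given. Among the 11 were those at JUN, at ATF3 and in the far body of FOSB. The start intervals of FOSL2 and FOSB were narrower.

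**Figure D3:**
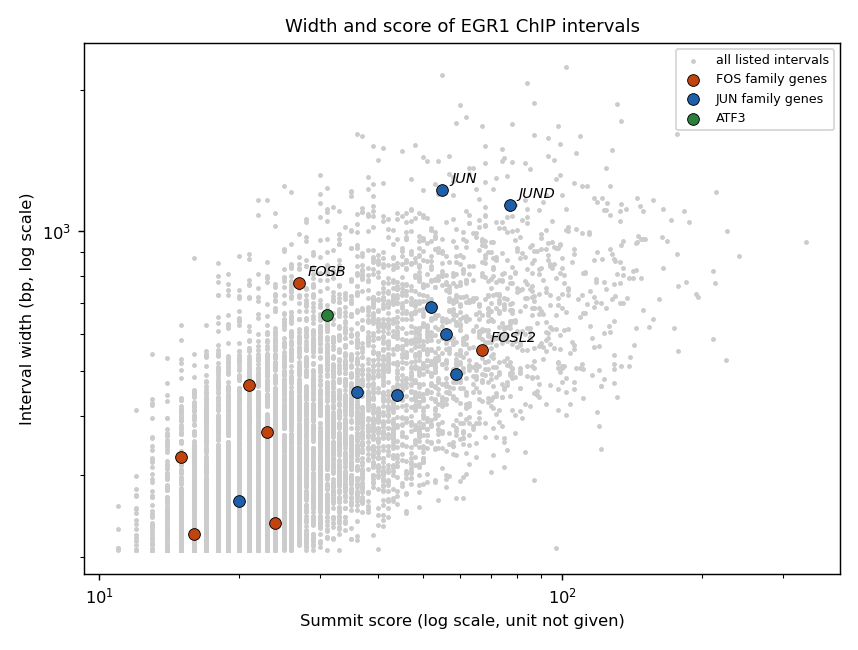
Width (bp) against summit score for all 7709 intervals (grey) and the 16 at AP-1 genes, both axes logarithmic. JUN (1223 bp at a score of 55), JUND (1134 bp at 77) and FOSB (773 bp at 27) lie near the upper edge of the cloud at their scores.

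The surroundings of the genes differed widely. Within 100 kb of the gene body, FOSB and FOSL1 each had 12 intervals, JUND 9, JUN and JUNB 6 each, FOSL2 3, and FOS and ATF3 2 each. FOSL2 stood alone, as all of its 3 intervals were within 3 kb of its start. At FOSL1, by contrast, 10 of the 12 lay beyond 10 kb, and the highest score there, 73, was 41.2 kb downstream of the start. That region held 57.6 intervals per Mb, 17 times the density of chromosome 11. The FOSB region was alike, with 10 of its 12 beyond 10 kb and 57.9 per Mb. Its ratio was only 5.05, as chromosome 19 held 11.5 per Mb against 3.38 for chromosome 11. Every region was denser than its chromosome, and the lowest ratio was 2.55, at ATF3. At FOS, JUNB and ATF3 the chromosome's density lay within the counting error of the region's count. Chromosome densities include gene-free sequence and unsequenced gaps. JUN had a cluster of 3 upstream, at 30.5, 31.1 and 32.1 kb from the start, with scores of 15, 74 and 14. The interval with a score of 74 scored above the one over the JUN start. At FOS, both intervals had a score of 20, and the region held 9.83 per Mb against 2.84 for chromosome 14. Exact Poisson 95% intervals on the counts were 0.242 to 7.22 for the 2 at FOS and at ATF3. They were 2.20 to 13.1 for the 6 at JUN and at JUNB, and 6.20 to 21.0 for the 12 at FOSB and at FOSL1.

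**Figure D4:**
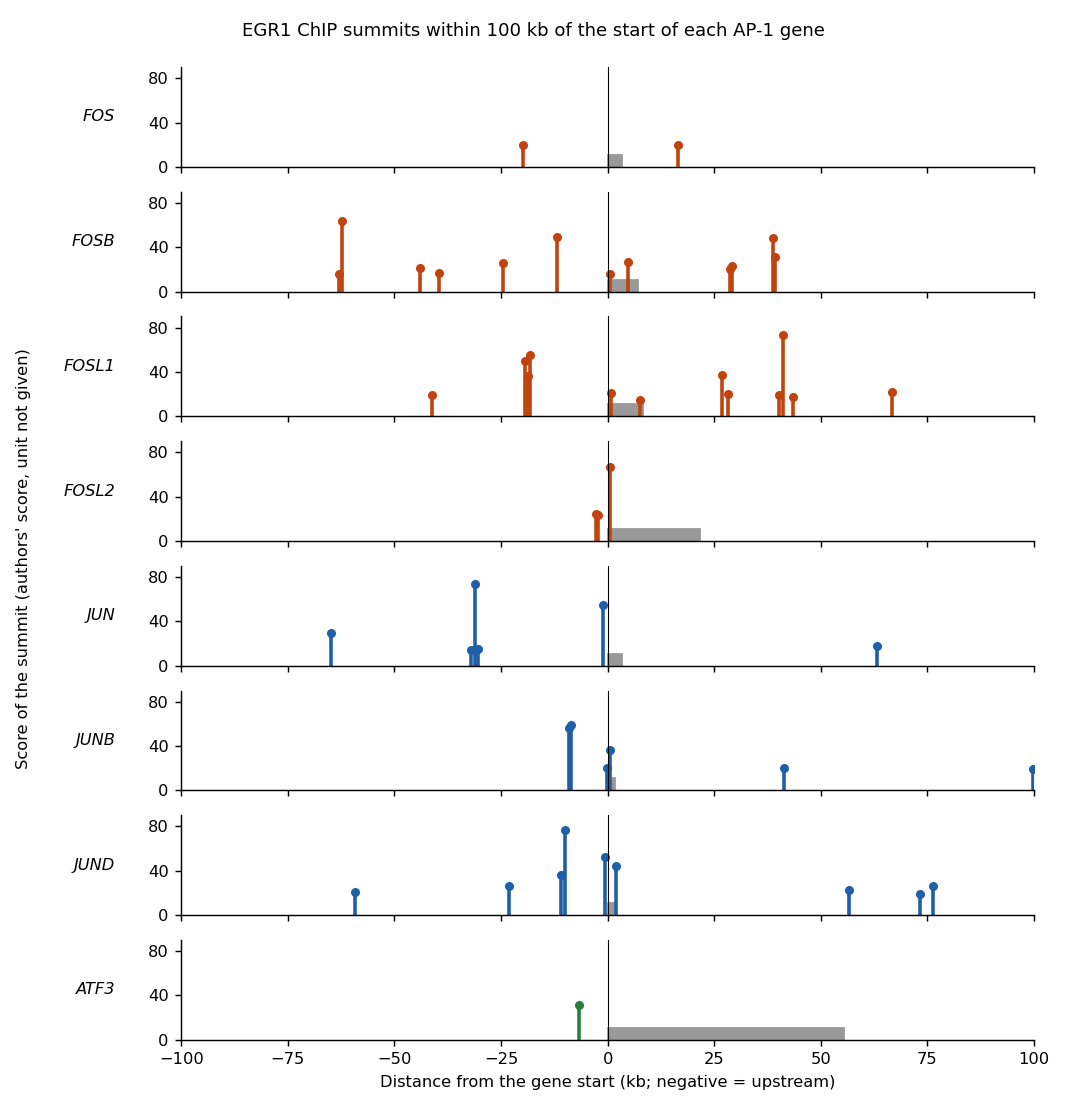
Summits within 100 kb either side of each gene start, with score as height and gene bodies in grey. FOSL2 has all its summits within 2.7 kb of the start, and FOSB and FOSL1 have most of theirs at a distance. The second ATF3 interval, 135 kb downstream of the start, is outside the plot.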

How the data were processed

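Chromatin of untreated t-HESC cells was sonicated, precipitated with an antibody against EGR1, selected at 200 to 300 bp and amplified over 18 PCR cycles, per the labels' protocols. BWA, MACS and MACS2 2.1.0 and build GRCh37.p2 are named, per the submitters' processing notes; their options, the handling of duplicate reads and the threshold were not known. The authors deposited interval and summit positions (unit: other) and a whole-number score per summit, whose unit is not given. Enrichment over the input and read counts were not analysed here, so depth is unknown.

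The gene bodies, genes and lists were chosen with earlier results of these data known. Starts were read as BED starts and are printed 1-based. The gene start is the 5′ end of the gene body. Strands were taken from the RefSeq promoters, and for FOSL1 from general knowledge. All 16 intervals in the windows were named. The patterns GCGNGGGC and TGACATCA were added after the sequences were seen. RefSeq gene lengths (GRCh38.p14) differed from the GRCh37 bodies by 1 to 2722 bp, so starts need not be the same base. Other AP-1 related genes were not analysed here, because their GRCh37 positions were not at hand. The window and motif searches were tested on simulated data. Values were computed in Python 3.11.15 with scipy 1.17.1, pandas 2.3.3 and numpy 2.4.6, and drawn with matplotlib 3.10.9. Alternatives varied the window, the score limit, the use of summits and the joining of neighbours.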

Additional observations from a re-analysis of the deposited data

How the results depend on the processing

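The number of AP-1 genes with an interval was 6 with a window of 5 kb, where ATF3 dropped out, 8 with one of 20 kb, where FOS came in, and 6 with intervals at or above the list's median score, where FOSL1 dropped out. The 16 intervals became 25 with the window of 20 kb and 10 at or above the median score, by construction. Counting summits gave 15 intervals and joining neighbours within 1000 bp gave 13. The median score of 33.5 was 25.5 at 5 kb, 36 at 20 kb, 31 by summits and 36 after joining. The share at or above the 90th percentile was 8.33% at 5 kb, 12% at 20 kb, 13.3% by summits and 23.1% after joining. The highest score at JUNB was 36 and that at JUND 52 with the window of 5 kb. It was 49 at FOSB and 55 at FOSL1 with that of 20 kb. With intervals at or above the median score, starts with an interval within 1 kb numbered 4 in place of 6. The nearest such summit was at -276041 bp for FOS and -18147 bp for FOSL1 (negative, upstream), in place of positions downstream of the start, and for JUNB at 442 bp downstream, in place of upstream. A window of 10 kb around the start alone, added after the data were seen, gave the same 16 intervals. No paired analysis was possible because each group has 1 library and the input has no intervals here. The single library and its unknown depth limit all values.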
